A study of Homo sapiens with 16 samples.

Results

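The effect of giving 2 drugs together was compared with the sum of their separate effects, gene by gene, in HCT116 cells with intact p53. HCT116 is an established human colorectal cancer line. The comparison used the 8 p53+/+ libraries of 16 in the series: vehicle (DMSO), 5 µM Nutlin-3A, 2.5 µM Entinostat and both drugs at those doses (the combination), each for 8 hours and each with 2 replicates. The other 8 libraries came from HCT116 p53-/- cells under the same 4 treatments and served to show where p53+/+ cells differed. The labels do not say whether replicates were separate cultures or whether the p53-/- line is 1 clone, so the spread between replicates may be technical. Polyadenylated RNA was sequenced, and the values are RPKM (reads scaled by gene length and by the size of the library). Of 20612 genes in the table, 10282 had a mean of at least 2 RPKM over the 16 libraries and were examined.

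For each gene and within each replicate, log2(RPKM + 0.5) in the combination was reduced by the values under Nutlin-3A and under Entinostat and increased by the value in DMSO. This departure from additivity is 0 where the fold change of the combination equals the product of the single-drug fold changes. It is positive where the combination stood higher than that product (above additivity) and negative where it stood lower (below additivity). Genes were taken as agreeing where the departure reached 0.5 in the same direction in both replicates.

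The transcription factor p53 is held at a low level by MDM2, a ubiquitin ligase that binds it and marks it for degradation. Nutlin-3A occupies the p53 pocket of MDM2, so that p53 accumulates and its target genes, among them MDM2 itself, are transcribed. Entinostat inhibits class I histone deacetylases (HDACs), enzymes that remove acetyl groups from histones and from other proteins, p53 included. Both genes that are switched on and genes that are switched off are known after HDAC inhibition.

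The 16 libraries had 45902800 to 55507300 alignments each. Correlations between replicates ran from 0.9814 to 0.994, and no pair of columns was identical. Among the p53+/+ libraries, replicate 1 of the combination stood somewhat apart, with 9.15% of its RPKM in its 10 highest genes, against 6.51% at the lowest library. The 5 epithelial markers examined summed to 2071 to 2273 RPKM in DMSO, to 2685 to 2779 with Nutlin-3A, to 2791 to 2860 with Entinostat and to 4005 to 4637 in the combination. Keratins dominate this sum. Over the p53+/+ libraries KRT19 alone ran from 450 to 2188 RPKM, KRT8 from 913 to 1653 and EPCAM from 126 to 190. A wider list of 13 tested epithelial genes had a median log2 change of -0.01 in the combination. The 13 markers of other cell types summed to 6.3 to 8.14 RPKM in DMSO, 6.87 to 7.38 with Nutlin-3A, 11 to 11.9 with Entinostat and 13 to 15.8 in the combination. Most of this second sum came from CD68 (3.55 to 7.33 RPKM) and COL1A1 (2.23 to 5.8 RPKM). The part of these markers in the departures was not tested.

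At a departure of 0.5, a larger group of genes lay below additivity than above it. In both replicates 66 genes were below by 0.5 or more (0.642% of the 10282), 35 genes were above (0.34%), and 5 genes passed 0.5 in opposite directions (0.0486%). At a departure of 1 in both replicates 9 genes were above, 4 were below and 0 were opposite. The departure had the same sign in both replicates for 7013 genes (68.2%), 4073 of them below and 2940 above. The median departure over all genes was -0.036, and -0.005 after scaling the libraries by the median of ratios. These sign counts around 0 therefore depend in part on the scaling. Across the 10282 genes the departures of replicates 1 and 2 had a Pearson correlation of 0.52. Genes are not independent, and the libraries of a replicate number also vary together.

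The test over libraries was more sparing. limma, fitted to all 16 libraries without regard to replicate number, called 0 genes above and 0 below at an adjusted p under 0.05, with 471 genes at an unadjusted p under 0.05 and a lowest adjusted p of 0.52. With the replicate number as a block limma called 2 genes above (0.0195%) and 9 below (0.0875%), each at an adjusted p of 0.048, and 1209 genes had an unadjusted p under 0.05. Above additivity these were PLK3 and SPHK1. Below it they were APAF1, IKBIP, TAB3, ZNF219, PTPRE, CD82, APOBEC3C, TMEM63B and TP53I11. All 11 are close to the threshold, and with another scaling of the libraries limma with the block called 0 and 0, with a lowest adjusted p of 0.051. Leaving out replicate 2 of the combination gave 57 above and 171 below with the block, and leaving out replicate 1 of the combination gave 1 above (PLK3) and 0 below. The calls with the block were also lost without replicate 1 or 2 of DMSO, replicate 1 of Nutlin-3A, or replicate 1 or 2 of Entinostat. The same held without any 1 of the p53-/- libraries, whose values do not enter the p53+/+ departure. The values that follow are therefore mainly measurements of size and of agreement between replicates.

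**Figure D1:**
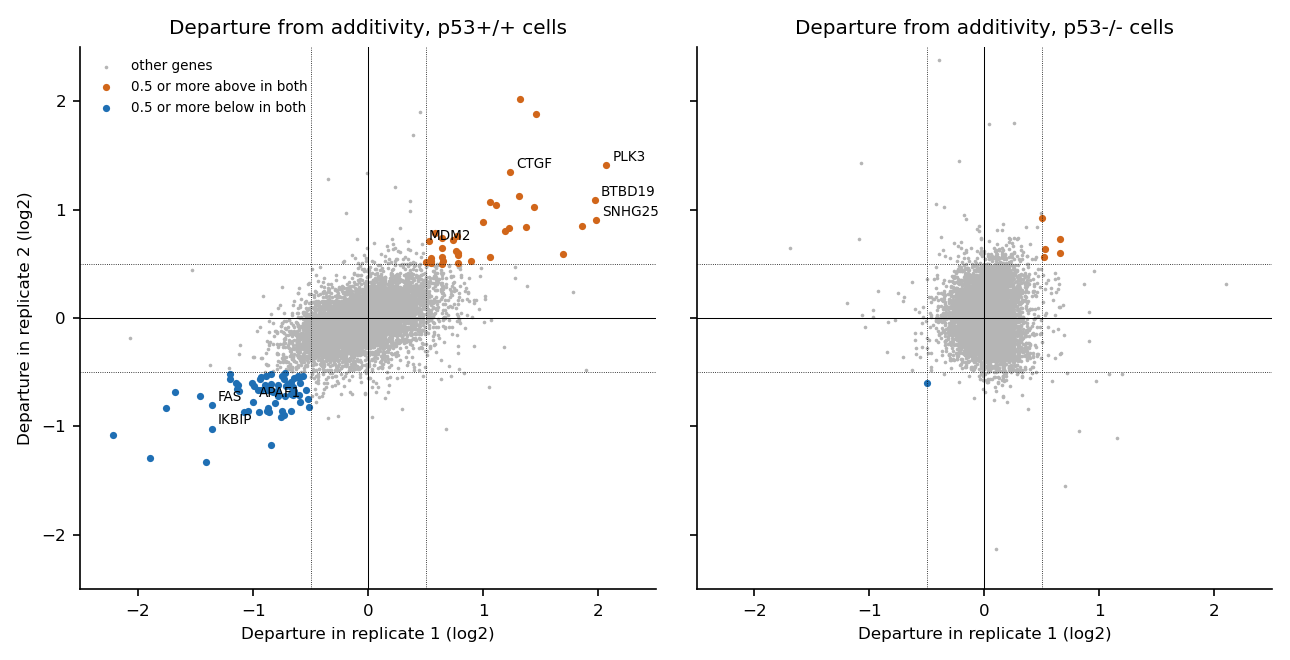
Departure from additivity in replicate 1 (horizontal, log2) against replicate 2 (vertical, log2) for 10282 genes, in p53+/+ cells on the left and p53-/- cells on the right. Dotted lines mark 0.5 in either direction, orange and blue points passed 0.5 in the same direction in both replicates, and 1 gene of the p53-/- cells lies outside the axes; 35 orange and 66 blue genes are seen in p53+/+ cells, against 5 and 1 in p53-/- cells.

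PLK3 stood furthest above additivity. It encodes polo-like kinase 3, a stress-responsive kinase and a p53 target. Its 8 p53+/+ libraries, replicate 1 then replicate 2, had 14.8 and 12 RPKM in DMSO, 70.3 and 50.6 with Nutlin-3A, 22.4 and 15.7 with Entinostat, and 446 and 176 in the combination. The product of the single-drug folds would have given 106 and 66.0 RPKM. Both combination libraries lay far above the other 6, although they differed from each other more than the replicates of any single treatment. The departure was 2.07 in replicate 1 and 1.41 in replicate 2, with a mean of 1.74 (SE 0.505 in limma without the block, adjusted p = 0.79, and 0.27 with it, adjusted p = 0.048). Without replicate 1 of the combination the mean was 1.07. In p53-/- cells PLK3 lay between 11 and 21.8 RPKM in all 8 libraries, and its departures were 0.06 and 0.33.

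BTBD19 is the next gene after PLK3 in RefSeq order among the genes tested, on the same strand. It encodes a BTB domain protein. It had 0.482 and 0.429 RPKM in DMSO, 3.04 and 2.69 with Nutlin-3A, 0.721 and 0.825 with Entinostat, and 16.7 and 9.18 in the combination, where 3.9 and 4.05 RPKM corresponded to additivity. As for PLK3, the combination libraries were above all others and replicate 1 was the higher. BTBD19 had a mean of 2.41 RPKM over the 16 libraries and passed the filter only through these combination libraries. The departures were 1.97 and 1.09 (mean 1.53; limma adjusted p = 0.61, and 0.064 with the block). Whether reads from PLK3 transcripts were counted to BTBD19 was not tested.

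The start regions of these neighbours are shown because the genes moved together and because PLK3 was called, though only with the replicate block. Each is the RefSeq window from 250 bases before to 50 after the start (GRCh38.p14), 5′ to 3′ on the gene's strand: chr1:44800127-44800426 for PLK3 and chr1:44808273-44808572 for BTBD19, both on the plus strand. Capitals mark matches, on either strand, to GGGCGG (the GC box), TGANTCA (a loose form of the AP-1 site) and TGACGTCA (the CRE). They also mark TTTGAA, the CArG box and the p53 decamer, which is a p53 half-site only. PLK3 had 2 GC boxes and BTBD19 had none but held TTTGAA, and neither window held the p53 decamer.
PLK3: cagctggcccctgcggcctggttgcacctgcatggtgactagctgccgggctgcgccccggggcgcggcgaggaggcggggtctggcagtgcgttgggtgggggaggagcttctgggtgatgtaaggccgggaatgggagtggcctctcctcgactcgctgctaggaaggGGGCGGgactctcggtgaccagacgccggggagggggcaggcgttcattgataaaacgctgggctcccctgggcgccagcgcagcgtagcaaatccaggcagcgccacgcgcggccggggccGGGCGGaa
BTBD19: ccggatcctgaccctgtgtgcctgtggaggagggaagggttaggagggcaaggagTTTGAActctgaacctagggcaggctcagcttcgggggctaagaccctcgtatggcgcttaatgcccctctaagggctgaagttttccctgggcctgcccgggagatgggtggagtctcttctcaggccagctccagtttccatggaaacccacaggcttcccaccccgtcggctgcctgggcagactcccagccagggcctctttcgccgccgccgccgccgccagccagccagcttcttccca

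**Figure D2:**
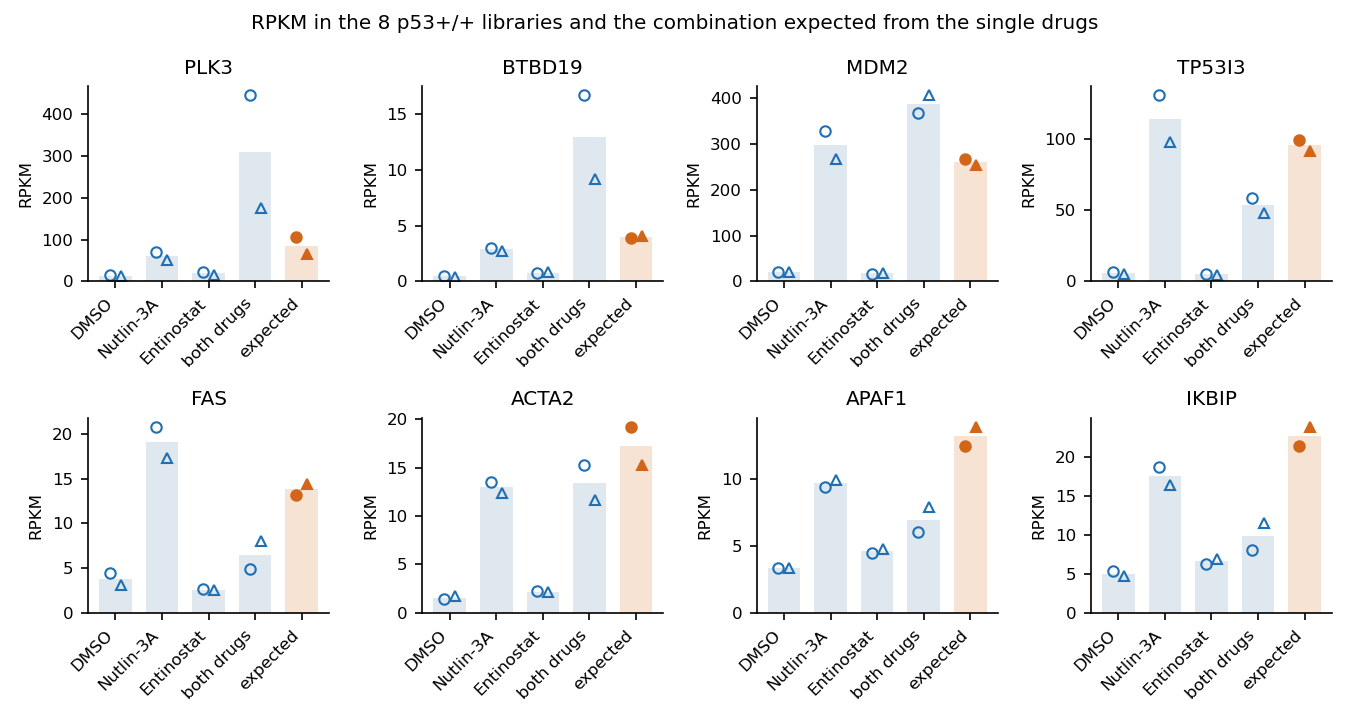
RPKM (vertical, from 0) of 8 genes in the p53+/+ libraries, with circles for replicate 1, triangles for replicate 2 and bars for the mean of 2. Filled orange symbols give the level expected in the combination from the single drugs; PLK3 reached 446 and 176 RPKM against 106 and 66.0 expected, while FAS had 4.86 and 8.05 against 13.2 and 14.4.

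CTGF and VGF were also above additivity, and both were low under Nutlin-3A. CTGF encodes a matrix-associated growth factor known as a target of YAP, and had 0.791 and 1.07 RPKM in DMSO, 1.8 and 1.2 with Nutlin-3A, 16.9 and 7.39 with Entinostat, and 72.5 and 21.3 in the combination. VGF encodes a secreted neuropeptide precursor and had 12 and 11.7 RPKM in DMSO, 11.9 and 11.1 with Nutlin-3A, 78.9 and 38.1 with Entinostat, and 212 and 74.3 in the combination. For CTGF the combination was above all other libraries, whereas for VGF replicate 2 of the combination was just under replicate 1 of Entinostat. The departures were 1.23 and 1.35 for CTGF and 1.44 and 1.02 for VGF. Leaving out 1 library moved the mean departure between 0.42 and 2.16 for CTGF and between 0.48 and 1.98 for VGF, the lowest without replicate 1 and the highest without replicate 2 of the combination. Their limma adjusted p was 0.96 in both cases, with intervals (95%, unadjusted) of the mean departure from -0.74 to 3.32 and from -0.43 to 2.89.

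SPHK1 followed another course. It encodes a sphingosine kinase, which makes the lipid messenger sphingosine 1-phosphate. It had 2.25 and 1.91 RPKM in DMSO, 1.02 and 0.902 with Nutlin-3A, 3.99 and 3.11 with Entinostat, and 4.46 and 3.39 in the combination. Nutlin-3A alone lay lowest, and the combination did not lie below Entinostat alone as the product of the folds would (1.98 and 1.6 RPKM). The departures were 1.0 and 0.89 (mean 0.94; limma adjusted p = 0.79, and 0.048 with the block), against 0.07 and 0.27 in p53-/- cells. FGFBP1, a secreted carrier of fibroblast growth factors chosen for mention after its values were seen, was also lowest under Nutlin-3A. It had 2.23 and 2.69 RPKM under Nutlin-3A against 3.88 and 4.38 in DMSO, 3.65 and 3.93 with Entinostat and 5.53 and 4.64 in the combination. Its departures were 1.22 and 0.83.

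CYP4F2, a fatty acid and vitamin hydroxylase of the cytochrome P450 family, was nearly silent in DMSO. It had 0.204 and 0.0495 RPKM there, 1.12 and 1.06 with Nutlin-3A, 1.84 and 0.809 with Entinostat, and 18.9 and 6.19 in the combination. The combination exceeded all other libraries in both replicates, with departures of 1.86 and 0.85. CYP4F2 had a mean of 2.04 RPKM over the 16 libraries and passed the filter only through its combination libraries. Its place among the genes tested therefore rests on the same high values. Both DMSO values were under the 0.5 RPKM added before taking logs, so the size of these departures rests on it. Without it, the mean of the combination was 99.1 times that of DMSO, against 89.5 for the product of the single-drug folds. The mean departure was 0.58 without replicate 1 of the combination and 2.12 without replicate 2. In p53-/- cells its highest library had 0.816 RPKM.

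Metallothioneins, small cysteine-rich proteins that bind zinc and copper, stood above additivity as a group. Of 7 listed, 5 were tested, with 4 above in both replicates at any size and 0 below, against 28.6% and 39.6% of all genes. The median departure was 0.59, against -0.04 over all genes tested. MT1X, MT2A and MT1E passed 0.5 in both replicates, as did 0.34% of all genes tested. MT2A, the most abundant of them, had 872 and 876 RPKM in DMSO, 905 and 869 with Nutlin-3A, 1907 and 1475 with Entinostat, and 3411 and 2218 in the combination. The combination was above all 6 other libraries, and Nutlin-3A alone was close to DMSO. The departures of MT2A were 0.78 and 0.60, those of MT1E 0.65 and 0.53, and those of MT1X 1.19 and 0.80 (limma adjusted p = 0.96 for each). Metallothionein genes are similar in sequence and reads may be split between them. The group's median in p53-/- cells was 0.35, and the departures of MT2A there were 0.21 and 0.49.

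MT2A and MT1E are neighbours in RefSeq order among the genes tested. The start region of MT2A (chr16:56608334-56608633, plus strand, GRCh38.p14) is shown because it is the most abundant agreeing gene of the group, and because it holds the AP-1 site (TGACTCA) found in 4 of 19 genes above additivity, along with 2 GC boxes. SPHK1 (chr17:76382954-76383253, plus strand) also held such a match, as TGAGTCA, together with 1 GC box.
MT2A: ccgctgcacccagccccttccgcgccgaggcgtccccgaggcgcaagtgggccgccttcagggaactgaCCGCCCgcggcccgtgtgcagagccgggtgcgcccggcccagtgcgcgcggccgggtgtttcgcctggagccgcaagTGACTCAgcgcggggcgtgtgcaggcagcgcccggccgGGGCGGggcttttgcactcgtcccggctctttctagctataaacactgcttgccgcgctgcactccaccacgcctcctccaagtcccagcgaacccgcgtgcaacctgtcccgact
SPHK1: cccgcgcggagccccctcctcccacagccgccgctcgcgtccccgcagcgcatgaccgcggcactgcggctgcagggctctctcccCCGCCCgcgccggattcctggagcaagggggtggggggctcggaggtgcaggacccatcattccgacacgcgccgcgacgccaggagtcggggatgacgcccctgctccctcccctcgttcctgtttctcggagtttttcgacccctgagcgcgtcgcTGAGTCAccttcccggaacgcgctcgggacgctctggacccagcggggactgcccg

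MDM2 and PPM1D encode negative regulators of p53, a ubiquitin ligase and a phosphatase. MDM2 had 20.4 and 20.0 RPKM in DMSO, 328 and 268 with Nutlin-3A, 16.5 and 18.8 with Entinostat, and 368 and 406 in the combination. The combination was above every other library although Entinostat alone did not exceed DMSO. The departures were 0.47 and 0.68, just outside the agreement rule in replicate 1 (mean 0.57, 95% interval 0.21 to 0.93; limma adjusted p = 0.79, and 0.21 with the block). PPM1D, named after its values were seen, had 11 and 10.4 RPKM in DMSO, 26.7 and 27.5 with Nutlin-3A, 11.1 and 9.92 with Entinostat, and 47.6 and 34.6 in the combination, with departures of 0.81 and 0.40. Replicate 2 kept it out of the agreeing set.

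Below additivity, the genes called with the block included IKBIP and APAF1, which are adjacent in RefSeq order among the genes tested and whose start regions lie head to head. APAF1 encodes the scaffold of the apoptosome, which activates caspase-9 after cytochrome c release from mitochondria. It had 3.33 and 3.36 RPKM in DMSO, 9.44 and 9.95 with Nutlin-3A, 4.51 and 4.81 with Entinostat, and 6.01 and 7.93 in the combination. Nutlin-3A alone was the highest group, and the combination lay between it and Entinostat alone without overlap. Additivity would have given 12.5 and 13.9 RPKM. The departures were -1.0 and -0.77 (mean -0.89, SE 0.14 with the block; limma adjusted p = 0.52, and 0.048 with the block).

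IKBIP, which encodes a protein named for its interaction with the kinase IKKβ, had a similar course. It had 5.35 and 4.68 RPKM in DMSO, 18.6 and 16.4 with Nutlin-3A, 6.2 and 6.95 with Entinostat, and 8.06 and 11.5 in the combination. The combination was again under Nutlin-3A alone in both replicates and above Entinostat alone. The departures were -1.36 and -1.02 (mean -1.19; limma adjusted p = 0.52, and 0.048 with the block). In p53-/- cells the departures were -0.19 and -0.39 for IKBIP and -0.14 and -0.21 for APAF1. The difference between genotypes had a limma adjusted p of 1 for IKBIP, with and without the block.

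The windows of IKBIP (chr12:98644739-98645038, minus strand) and APAF1 (chr12:98645040-98645339, plus strand) are shown because they abut and face away from each other, so that the pair shares its start region. IKBIP held 3 GC boxes and TTTGAA, APAF1 held 1 GC box, and neither held the p53 decamer within these letters.
IKBIP: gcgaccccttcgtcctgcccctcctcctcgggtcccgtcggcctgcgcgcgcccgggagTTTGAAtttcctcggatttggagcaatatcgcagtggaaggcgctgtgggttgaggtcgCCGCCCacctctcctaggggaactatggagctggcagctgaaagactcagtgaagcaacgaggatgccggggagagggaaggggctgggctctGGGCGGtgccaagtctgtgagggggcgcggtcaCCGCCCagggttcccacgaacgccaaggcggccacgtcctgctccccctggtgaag
APAF1: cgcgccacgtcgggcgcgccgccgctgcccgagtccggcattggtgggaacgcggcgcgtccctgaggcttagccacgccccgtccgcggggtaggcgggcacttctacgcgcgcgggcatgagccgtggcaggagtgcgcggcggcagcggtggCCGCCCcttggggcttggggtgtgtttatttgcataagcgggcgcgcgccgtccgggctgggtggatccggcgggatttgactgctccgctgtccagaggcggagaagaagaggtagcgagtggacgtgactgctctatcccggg

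FAS encodes the death receptor CD95, which recruits FADD and caspase-8 to start apoptosis, and is a p53 target. It had 4.43 and 3.15 RPKM in DMSO, 20.8 and 17.3 with Nutlin-3A, 2.67 and 2.55 with Entinostat, and 4.86 and 8.05 in the combination. The combination was above DMSO in both replicates but far under Nutlin-3A alone, and under the 13.2 and 14.4 RPKM of additivity. The departures were -1.36 and -0.80 (mean -1.08, 95% interval -1.74 to -0.41; limma adjusted p = 0.79, and 0.21 with the block). In p53-/- cells FAS lay between 1.06 and 2.21 RPKM, with departures of 0.11 and -0.15.

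ACTA2, which encodes smooth muscle actin and overlaps FAS at its 5′ end, did not share this pattern at the same size. It had 1.43 and 1.71 RPKM in DMSO, 13.5 and 12.4 with Nutlin-3A, 2.21 and 2.19 with Entinostat, and 15.3 and 11.6 in the combination. The combination and Nutlin-3A libraries overlapped. The departures of ACTA2 were -0.32 and -0.39 (95% interval of the mean -1.18 to 0.47, limma adjusted p = 0.96). Because the strand setting of the counting is not given, reads of the overlap cannot be assigned to either gene with certainty. The start region of FAS (chr10:88990548-88990847, plus strand) is shown as that of the death receptor with the largest departure, and held TGAATCA (an AP-1 match), TTTGAA on the opposite strand and 1 GC box.
FAS: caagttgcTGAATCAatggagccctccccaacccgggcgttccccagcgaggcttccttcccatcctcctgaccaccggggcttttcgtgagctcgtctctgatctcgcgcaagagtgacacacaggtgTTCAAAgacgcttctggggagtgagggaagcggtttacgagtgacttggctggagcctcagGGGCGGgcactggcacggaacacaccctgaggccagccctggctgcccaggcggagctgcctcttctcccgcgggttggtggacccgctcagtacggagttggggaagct

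The p53 targets as a list lay below additivity, while its largest departures were above. Of 60 listed, 51 were tested, 35 were below in both replicates at any size and 10 above, against 39.6% and 28.6% of all genes tested. The median departure was -0.25 (-0.22 after scaling the libraries by the median of ratios), against -0.04 (0.00) for all genes and -0.01 for the same list in p53-/- cells. At 0.5, 8 p53 targets agreed below, namely FAS, ZMAT3, TP53I3, TNFAIP8, CMBL, POLH, GADD45A and SESN1, and 2 agreed above, among them PLK3. Over all genes tested 0.642% agreed below and 0.34% above. The list was written with earlier results of these data known. Under limma with the block PLK3 was the only list member called, and without it 0 were called.

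Of these, TP53I3, an oxidoreductase that generates reactive oxygen species, had the highest levels with Nutlin-3A relative to DMSO. It had 6.73 and 5.21 RPKM in DMSO, 131 and 98.3 with Nutlin-3A, 5.01 and 4.83 with Entinostat, and 58.6 and 48.4 in the combination. The combination was far above DMSO and Entinostat, yet under both Nutlin-3A libraries. Its departures were -0.76 and -0.91 (limma adjusted p = 0.87, and 0.064 with the block). ZMAT3, an RNA-binding zinc finger protein, had 10.2 and 9.71 RPKM with Nutlin-3A and 5.11 and 7.26 in the combination, with departures of -1.20 and -0.52. SESN1, a stress-responsive inhibitor of mTORC1, had 23.1 and 21.5 RPKM with Nutlin-3A and 16 and 16.9 in the combination, with departures of -0.57 and -0.53. POLH, the translesion polymerase eta, had 13.4 and 13.6 RPKM with Nutlin-3A and 9.89 and 10.3 in the combination. In these 4 the combination libraries were under both Nutlin-3A libraries, as they were for FAS and CMBL. The same position was found in 39% of all genes tested, and choosing genes below additivity in large part sets it. In GADD45A, an inhibitor of growth after stress, the groups overlapped (99.6 and 76.2 RPKM with Nutlin-3A, 84.9 and 64.9 in the combination). They overlapped too in TNFAIP8, a regulator of apoptosis (5.21 and 4.79 RPKM with Nutlin-3A, 4.28 and 5.9 in the combination). Apart from FAS, the values of these targets were chosen for mention after their values were seen.

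CDKN1A, the gene of p21, an inhibitor of cyclin-dependent kinases, was the most abundant target named here. It had 89.2 and 66.1 RPKM in DMSO, 1059 and 763 with Nutlin-3A, 121 and 104 with Entinostat, and 1069 and 722 in the combination. The combination overlapped Nutlin-3A alone, and both were far above DMSO and Entinostat. The departures were -0.43 and -0.73 (mean -0.58, 95% interval -1.73 to 0.57; limma adjusted p = 0.96, and 0.26 with the block). In p53-/- cells CDKN1A had 91.0 and 49.9 RPKM with Entinostat and 100 and 54.5 in the combination, with departures of -0.04 and -0.10. TNFRSF10B, the TRAIL receptor DR5, had 103 and 94.3 RPKM with Nutlin-3A and 101 and 89.7 in the combination, with departures of -0.18 and -0.20.

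Of the death receptor pathway, 18 of 23 listed genes were tested, 9 were below and 7 above in both replicates, and the median departure was -0.04. FAS alone passed 0.5 in both replicates, and 0.642% of all genes tested did so below additivity. XIAP, an inhibitor of caspases, had 3.31 and 3.95 RPKM with Nutlin-3A, 2.26 and 3.07 with Entinostat and 1.48 and 2.54 in the combination (departures -0.41 and -0.39). FADD, the adaptor of FAS, had 13.4 and 13.5 RPKM with Nutlin-3A and 18.8 and 15.5 in the combination (0.47 and 0.31). Both were named after their values were seen. CFLAR, which encodes the caspase-8 regulator FLIP, was under the level filter. It had 1.94 and 2.07 RPKM in DMSO, 4.14 and 3.71 with Nutlin-3A, 0.754 and 1.08 with Entinostat and 1.28 and 1.87 in the combination, and untested departures of -0.42 and -0.12. Additivity would have given 1.88 and 2.08 RPKM, so that replicate 1 lay further from it than replicate 2. Of the BCL2 family, 2 of 12 tested genes were above and 4 below in both replicates, with a median of 0.00. Over all genes tested the shares above and below in both replicates were 28.6% and 39.6%.

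A further 7 genes below additivity passed limma only with the block. PTPRE, a receptor-type tyrosine phosphatase, had 2.34 and 2.05 RPKM in DMSO, 14.1 and 10.0 with Nutlin-3A, 2.89 and 1.91 with Entinostat, and 5.83 and 5.56 in the combination, with departures of -1.46 and -0.72. ZNF219, a zinc finger transcription factor, had 12.3 and 9.57 RPKM with Nutlin-3A and 4.63 and 4.75 in the combination, above the 3.99 and 3.56 of DMSO. In both genes the combination was under both Nutlin-3A libraries. TAB3, an adaptor of the kinase TAK1, had 8.51 and 6.66 RPKM with Nutlin-3A and 4.47 and 5.04 in the combination, which were again lower. Of the 7 genes, only CD82 had combination and Nutlin-3A libraries that overlapped. This gene encodes a tetraspanin known as a metastasis suppressor and had 27.1 and 19.0 RPKM with Nutlin-3A and 23.2 and 15.3 in the combination, and its mean departure of -0.87 became -0.57 without replicate 2 of the combination. APOBEC3C, a cytidine deaminase, had 83.3 and 67.0 RPKM with Nutlin-3A and 45.4 and 40.8 in the combination. TMEM63B, a membrane channel protein, had 52.3 and 46.3 RPKM against 38.0 and 35.2, and TP53I11 had 17.4 and 15.9 against 13.9 and 11.7. Each was also higher with Nutlin-3A than in DMSO in both replicates, and the departures of these 7 genes in p53-/- cells lay between -0.16 and 0.41.

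The largest departures below additivity included GALNT5 and SULF2. GALNT5, which starts mucin-type O-glycans, had 24.6 and 12 RPKM with Nutlin-3A and 5.98 and 6.13 in the combination, with departures of -1.76 and -0.83. SULF2, a heparan sulfate sulfatase, had 19.9 and 16 RPKM with Nutlin-3A and 16 and 12.6 in the combination, with departures of -1.04 and -0.86. In GALNT5 the combination was under both Nutlin-3A libraries, and in SULF2 it was so within each replicate. DPYSL4 and PLCXD2 departed by -1.08 and -0.87 and by -0.86 and -0.87, CTHRC1 by -0.87 and -0.83 and ASB3 by -0.84 and -1.17.

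A different form was seen in H1F0, the linker histone H1.0 of differentiated cells, which HDAC inhibitors are known to induce. It had 150 and 159 RPKM in DMSO, 169 and 208 with Nutlin-3A, 341 and 324 with Entinostat, and 200 and 269 in the combination. Here it was Entinostat alone that stood highest, and the combination was under both Entinostat libraries. The departures were -0.93 and -0.66 (mean -0.79; limma adjusted p = 0.79, and 0.13 with the block), against 0.02 and -0.12 in p53-/- cells. EPPK1, a cytolinker of epithelia chosen after its values were seen, was below additivity while its combination was above all other libraries. It had 4.89 and 4.84 RPKM in DMSO, 13.6 and 15.6 with Nutlin-3A, 26.7 and 20.0 with Entinostat and 39.5 and 38.1 in the combination, with departures of -0.83 and -0.68.

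**Figure D3:**
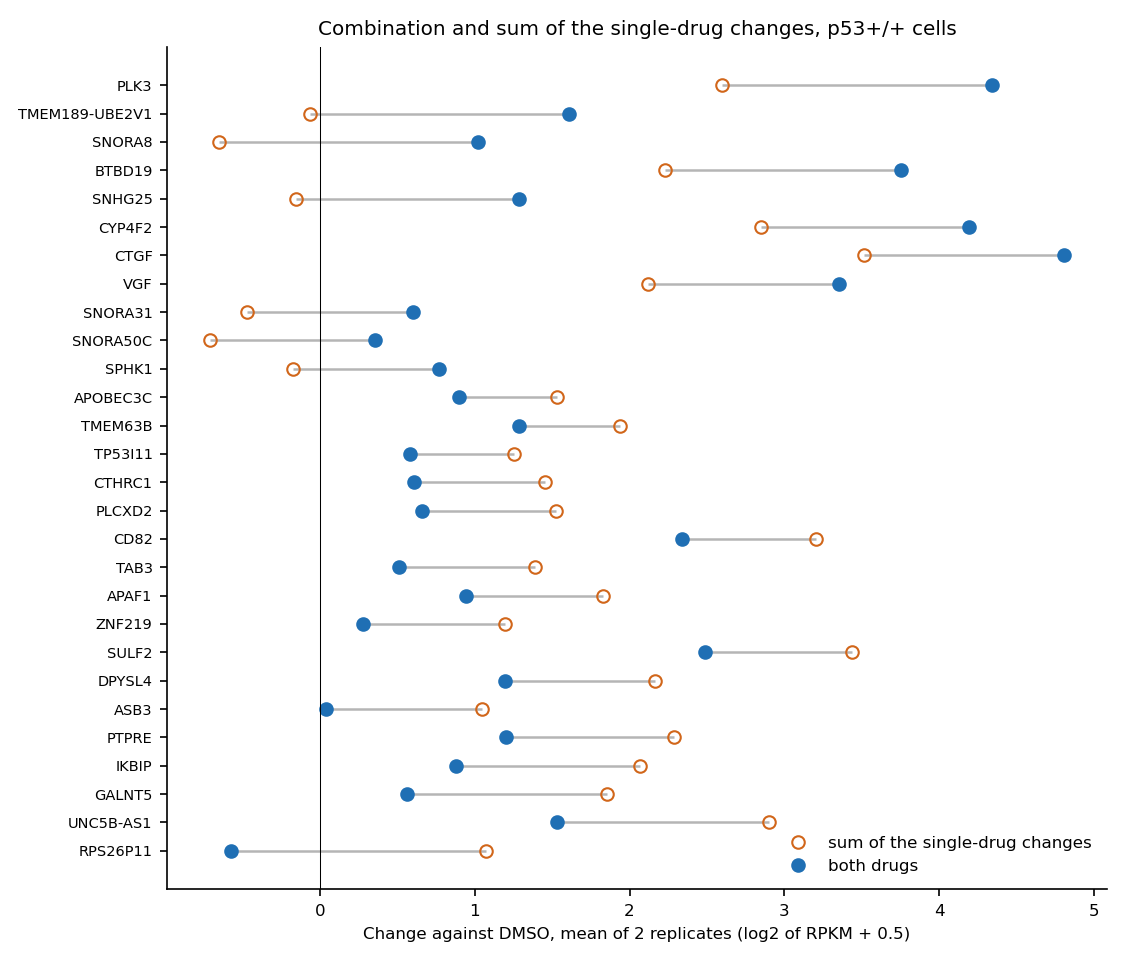
Change against DMSO (horizontal, log2 of RPKM + 0.5, mean of 2 replicates) in p53+/+ cells for genes of largest agreeing departure and those called with the replicate block. Open circles give the sum of the single-drug changes and filled circles the combination; for PLK3 the filled circle lies 1.74 to the right of the open circle, and for IKBIP 1.19 to the left of it.

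The 35 and the 66 genes had different single-drug levels. The 66 genes below had median log2 changes against DMSO of 1.41 with Nutlin-3A, 0.36 with Entinostat and 0.87 in the combination, and the 35 genes above had -0.32, 0.31 and 0.76. Over all genes tested these medians were -0.04, -0.02 and -0.09. The single-drug values enter the departure with a negative sign, and the combination with a positive one, so these medians and the counts that follow are in large part set by the choice of genes and test nothing. The combination libraries were under both Nutlin-3A libraries in 46 of the 66 genes, in 0 of the 35 and in 39.0% of all genes tested. They were above both Nutlin-3A libraries in 5 of the 66 genes, in 31 of the 35 and in 26.6% of all genes tested. The combination was above all 6 other p53+/+ libraries in 13 of the 35 genes and in 5 of the 66, compared with 6.32% of all genes tested. It was below all 6 in 0 and 3, compared with 16.3%.

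On the linear scale, where additivity means that RPKM differences add, 33 of the 35 genes were still above in both replicates. FAM222A and KCNS3 were below on that scale. Of the 66 genes, 63 were still below, EPPK1 and HES2 were above, and LAMP3 differed between replicates. MDM2 was above on both scales, with linear departures of 44.3 and 139 RPKM, and CDKN1A below on both, with -22.1 and -79.1 RPKM. ACTA2 had linear departures of 0.978 and -1.34 RPKM, so that it departed in no fixed direction there.

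The threshold of 0.5 cut through a continuous range. By the smaller of the 2 replicate values, GPRIN1 (0.5011), FZD2 (0.5018) and KCNS3 (0.5056) were just inside above additivity, and PHF19 (0.4979), ATOX1 (0.4935) and FIBCD1 (0.4917) just outside. Below additivity HSD17B7P2, LAMP3 and EFNB1 were just inside, and PLK2, a stress-inducible kinase related to PLK3, was just outside. PLK2 had 12 and 11.4 RPKM in DMSO, 56.7 and 37.7 with Nutlin-3A, 23.3 and 16.2 with Entinostat and 57.5 and 37.4 in the combination. Its departures were -0.90 and -0.50, opposite in sign to those of PLK3, and its combination libraries matched those of Nutlin-3A closely.

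Of the agreeing genes, 17 of 35 and 33 of 66 had a mean under 5 RPKM, against 2462 of all 10282. The departure was larger in replicate 1 in 26 of the 35 genes and in 49 of the 66, and the median absolute departure over all genes was 0.193 in replicate 1 and 0.112 in replicate 2. Replicate 1 also had the higher Entinostat levels of CTGF, VGF and MT2A. The part of replicate quality in these counts was not tested.

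Several agreeing features overlap other genes or are copies of them, and their RPKM depend on how shared reads were counted. Above additivity these were the snoRNAs SNORA8, SNORA31, SNORA50C and SNORA61, which lie within host genes, the read-through genes TMEM189-UBE2V1, INO80B-WBP1 and MEF2BNB-MEF2B, and the antisense genes PXN-AS1 and DGUOK-AS1. Below it they were the pseudogenes RPS26P11, RPL23AP53 and HSD17B7P2 and the antisense gene UNC5B-AS1. INO80B, a subunit of a chromatin remodelling complex, was below (departures -1.68 and -0.68) while the read-through gene INO80B-WBP1, which contains it, was above (1.69 and 0.59). SNHG25, a host gene of snoRNAs, had 30.3 and 32.5 RPKM in DMSO, 25.0 and 32.9 with Nutlin-3A, 26.1 and 36.4 with Entinostat and 86.1 and 69.3 in the combination. Neither drug alone separated it from DMSO, and both combination libraries were above all others. Its departures were 1.98 and 0.90 (limma adjusted p = 0.61, and 0.05 with the block), and its neighbour among the genes tested, SNORA50C, was above as well.

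Among the 101 agreeing genes, all matched by symbol to RefSeq, 5 pairs were direct neighbours within the 10220 matched genes tested. In 4 pairs both members departed in the same direction, namely PLK3 with BTBD19, MT2A with MT1E and SNHG25 with SNORA50C above, and IKBIP with APAF1 below. The fifth was the overlapping INO80B pair.

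The remaining genes above additivity were LHX2, C1orf233, TMEM238, TMEM200B, CPA4, EFNA2, CTXN1, FAM222A, LINC00152, FZD2, C14orf80, C6orf1, KCNS3 and GPRIN1. LHX2, a LIM homeobox transcription factor chosen after its values were seen, was lowest under Nutlin-3A, with 4.53 and 3.76 RPKM in DMSO, 1.78 and 1.77 with Nutlin-3A, 7.26 and 4.26 with Entinostat and 5.53 and 3.79 in the combination. The remaining genes below included regulators of growth and signalling chosen after their values were seen. AREG, a ligand of the EGF receptor, had 205 and 146 RPKM with Nutlin-3A and 206 and 117 in the combination, with departures of -0.59 and -0.77. TOB1, an antiproliferative adaptor of mRNA deadenylation, had 44.3 and 37.2 RPKM with Nutlin-3A and 33.1 and 29.5 in the combination. Lower levels in the combination than under Nutlin-3A were also seen in 3 genes of lipid and actin signalling. ACER2, an alkaline ceramidase, had 7.53 and 7.72 RPKM against 5.6 and 6.95, and PSTPIP2, an actin-associated adaptor, had 41.4 and 32.7 against 15.7 and 20.4. DGKA, a diacylglycerol kinase, had 23.0 and 23.6 against 13.6 and 16.4. In TOB1 and these 3 genes, but not in AREG, both combination libraries were under both Nutlin-3A libraries. The others below additivity were HSPA4L, RFK, LYRM5, CASZ1, FAM210B, GJB5, FAM212A, DUOX1, SPATA7, FAM212B, PARD6G, RINL, MAP3K12, CYFIP2, TMEM2, CEP76, TMEM183A, ARL15, NTN1, C18orf32, ADAMTS7, TMEM263, EPN3, BHLHE40, ZFP90, FRS3, PTPRU, HES2, LAMP3 and EFNB1. Their departures per replicate ran from -1.14 (HSPA4L) to -0.51 (LAMP3).

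DNA replication and G1/S genes leaned above additivity without any member passing 0.5 in both replicates. Of 39 tested, 30 were above and 2 below in both replicates at any size, against 28.6% and 39.6% of all genes. The median departure was 0.20 (0.23 after scaling by the median of ratios), against -0.04 (0.00) for all genes. In p53-/- cells the list median was -0.02. MCM2, a subunit of the replicative helicase, had 107 and 102 RPKM in DMSO, 36.8 and 49.3 with Nutlin-3A, 66.4 and 78.0 with Entinostat, and 34.4 and 47.8 in the combination. ORC1, of the origin recognition complex, had 22.4 and 21.9 RPKM in DMSO, 5.74 and 8.23 with Nutlin-3A, 19.8 and 19.4 with Entinostat and 7.03 and 10.1 in the combination. In both genes the combination overlapped Nutlin-3A alone. In bulk RNA, fewer cells in a phase of the cycle and less RNA per cell cannot be told apart. The departures were 0.59 and 0.35 for MCM2 and 0.45 and 0.45 for ORC1 (limma adjusted p = 0.96 for each). MCM2 and ORC1 were named after their values were seen.

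The 36 genes of G2/M and mitosis had a median departure of -0.02, with 14 above and 13 below in both replicates. By these counts and this median the G2/M and mitosis list showed no such lean. Its median log2 change was -1.24 with Nutlin-3A and -1.27 in the combination. The DNA replication and G1/S list had -1.08 and -1.09, so these changes do not tell the 2 lists apart. For 20 genes of homologous recombination and Fanconi repair the median was 0.13, with 11 above and 8 below. Over all genes tested 28.6% were above and 39.6% below in both replicates. Lists for HDACs and corepressor subunits (median -0.07), immediate early genes and ERK feedback (0.12), the interferon response (0.15), cholesterol synthesis (-0.04), ribosome biogenesis and MYC (-0.02), the integrated stress response (0.02), the unfolded protein response and heat shock (0.05) and autophagy and lysosome genes (-0.03) had 0 members that agreed at 0.5. The same held for p53 regulators (-0.12), the BCL2 family, NF-kB targets (0.07) and epithelial genes (0.09). Of all genes tested 0.34% agreed above and 0.642% below, so 0 is a usual count for lists of this size. No list median was tested.

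**Figure D4:**
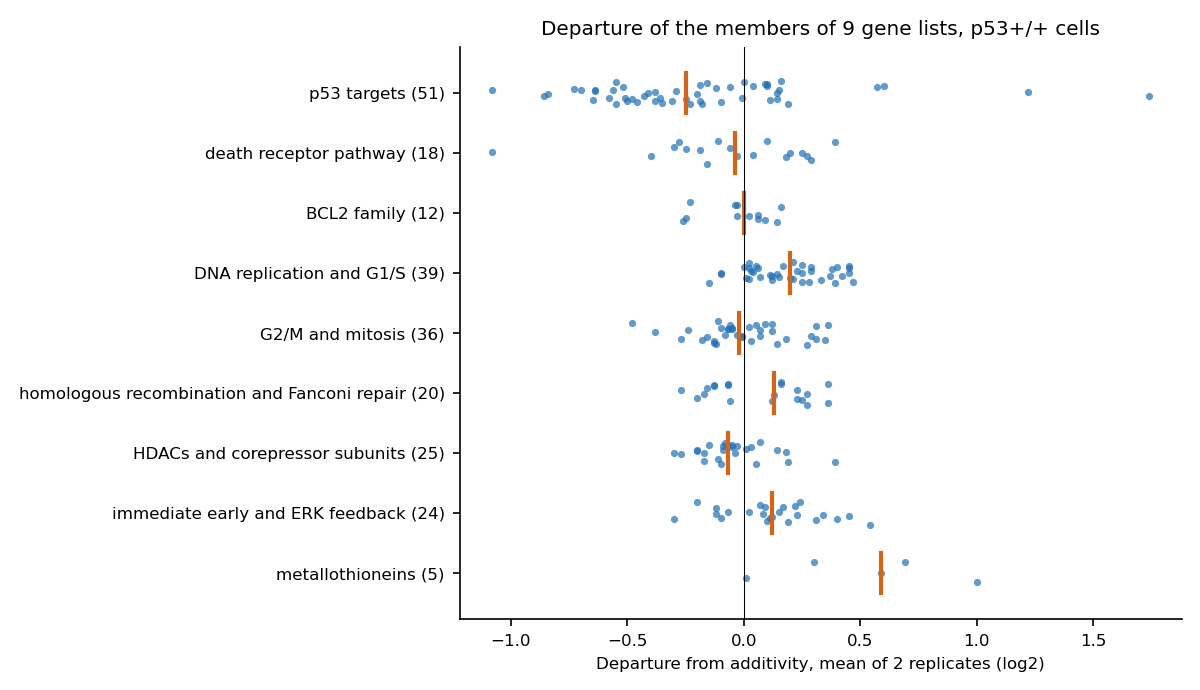
Departure from additivity in p53+/+ cells (horizontal, log2, mean of 2 replicates) of the tested members of 9 lists, each point a gene, with the number of members in brackets and the list median as an orange line. The median was -0.25 for p53 targets, 0.20 for DNA replication and G1/S and 0.59 for metallothioneins; the vertical position within a list has no meaning.

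In p53-/- cells, whose libraries are separate, departures agreed in fewer genes, and their means over 2 replicates were smaller in the median. The median absolute mean departure was 0.0894, against 0.136 in p53+/+ cells. Within replicates 1 and 2 the median was 0.0855 and 0.161 in p53-/- cells, against 0.193 and 0.112 in p53+/+ cells. Replicate 2 alone was thus larger in p53-/- cells. At 0.5 in both replicates 5 genes were above (0.0486%), 1 was below (0.00973%) and 12 were opposite (0.117%). The correlation across genes between replicates 1 and 2 was -0.011 there. limma called 0 genes in p53-/- cells (50 at an unadjusted p under 0.05), and 0 with the block (231). The departures of the 66 genes had a median of -0.01 in p53-/- cells, with 58 of them within 0.25 of 0 and 0 at or below -0.5 in both replicates. Those of the 35 genes had a median of 0.20, with 17 within 0.25 of 0 and 1 above 0.5 in both replicates (TMEM189-UBE2V1, 0.66 and 0.73). Of all genes tested 0.00973% were below by 0.5 in both p53-/- replicates, so 0 among the 66 is a usual count. The share of all genes within 0.25 of 0 was not counted, and their median absolute mean departure was 0.0894. Without that share, the 58 cannot be set against other genes, and no conclusion is drawn from it.

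The difference in departure between genotypes was tested directly. limma called 0 genes (105 at an unadjusted p under 0.05), and 0 with the block (281, lowest adjusted p 0.43). For PLK3 the departure in p53+/+ cells was higher by 1.54 (SE 0.714 without the block and 0.381 with it), with a limma adjusted p of 1 and of 0.79. For FAS it was lower by a log2 difference of -1.06, with a limma adjusted p of 1 in both fits. Across genes the mean departures of the genotypes had a correlation of 0.44. By replicate this came to 0.10 between the libraries numbered 1, 0.29 between those numbered 2, and 0.51 between replicate 1 of p53+/+ and replicate 2 of p53-/- cells, which share no library.

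Motifs were counted in the RefSeq start windows of 300 bases, which were found for 19 of the 35 genes, 45 of the 66, 7939 of the genes tested and 27305 genes in all, using the first window listed per gene. The p53 decamer, a half-site only, was in 5 of the 19 windows (26.3%), those of CPA4, FAM222A, FGFBP1, INO80B-WBP1 and PXN-AS1. It was in 3 of the 45 (6.67%), those of DUOX1, FRS3 and TAB3, against 4.86% of tested genes and 6.54% of all. The p53 decamer and TGANTCA had the widest gaps between the sets. TGANTCA was in 21.1% of the 19 (CPA4, INO80B-WBP1, MT2A and SPHK1) and 4.44% of the 45, against 4.06% and 7.76%. GGGCGG was in 68.4% and 77.8%, against 74.0% and 44.6%. The other motifs were at shares closer to those of all genes tested. TGACGTCA was in 5.26% and 6.67% (3.56% and 1.98%), TTTGAA in 10.5% and 8.89% (8.93% and 15.4%), and the CArG box in 0 of both sets (0.932% and 1.29%). A TGANTCA and a GGGCGG match do not overlap by their letters. The numbers of windows are small, and a match describes letters only.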

How the data were processed

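Values are RPKM per gene that the authors computed and deposited. Per the submitters' processing notes, reads were aligned with Bowtie2 to hg19 and quantified with Partek, while versions, gene models and the strand setting are not given there. Stranded libraries of polyadenylated RNA were made, per the labels' protocols. RPKM were taken as log2(RPKM + 0.5), which understates changes of genes at low RPKM, for genes with a mean of at least 2 RPKM over 16 libraries (10282, or 49.9%). limma 3.58.1 (R 4.3.3) with an intensity trend fitted 8 group means to the 16 libraries, and p-values were adjusted by the Benjamini-Hochberg method over all genes tested, with a threshold of 0.05. The procedure was tested on simulated data.

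Replicate numbers come from the labels. Deviations of same-numbered libraries correlated in all 28 pairs of groups (r from 0.31 to 0.85, median 0.50), so the numbers were taken to pair the libraries and the replicate was also fitted as a block. Genes named were PLK3, ACTA2, FAS, CDKN1A, MDM2, CFLAR and TNFRSF10B, the 12 largest departures in each direction (called genes first, then agreeing ones ranked by the smaller replicate value), genes called with the block and up to 3 agreeing members of each of 24 lists. Some of the genes chosen by this rule are not reported here. Others are marked as chosen after their values were seen. The members and lists were chosen with earlier results of these data known. Promoter windows are RefSeq sequences of GRCh38.p14, and the RPKM rest on hg19. Alternatives were other scaling, pseudocounts of 0.1 and 1, other filters, no trend, p53+/+ libraries only and each library left out.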

Additional observations from a re-analysis of the deposited data

How the results depend on the processing

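With 2 replicates a group and a departure that sums 4 group means, calls were few and unstable. Without a block limma called 0 genes above and 0 below additivity in p53+/+ cells, and with the replicate block, which rests on the pairing of the numbers, 2 and 9. Without the filter on low RPKM and without the block, limma called 6 above and 19 below, 10 in p53-/- cells and 18 for the difference between genotypes. Leaving out 1 library gave 0 to 1 above and 0 to 2 below without the block, the calls appearing without replicate 2 of Nutlin-3A (0 and 1) or of the combination (1 and 2). The following settings were chosen after seeing the data. With the block, leaving out 1 library gave 0 to 57 above and 0 to 171 below. These were 57 and 171 without replicate 2 of the combination, 3 and 7 without replicate 2 of Nutlin-3A, and 1 and 0 without replicate 1 of the combination, and the difference between genotypes then had 0 to 1 calls. With the block and all libraries, a pseudocount of 1 gave 4 and 13, no intensity trend gave 4 and 14, and median of ratios scaling, a pseudocount of 0.1, a filter of 0.5 RPKM and p53+/+ libraries only each gave 0 and 0. The genes agreeing at 0.5 numbered 35 above and 66 below. They became 54 above with a pseudocount of 0.1, 75 and 114 with a filter of 0.5 RPKM, and 9 and 4 at a departure of 1. The mean departure of the named genes that were tested kept its direction under every alternative run. Most of these genes were chosen by their departures in the same libraries, so the kept direction is in large part set by the choice. The size of the departure moved by more than 1.5 times in 29 of 77 when 1 p53+/+ library was left out. This was most often replicate 1 (16 genes) or replicate 2 (17 genes) of the combination. AREG, for example, ranged from -1.09 to -0.27. The causes of these shifts were not tested. RPKM carry no counts, so the depth behind a gene is unknown, and genes near the filter are the least precise.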
